A study of Mus musculus with 4 samples.

Results

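Chemokine receptors are G protein-coupled receptors that steer leukocytes along gradients of chemokines, small secreted proteins made by lymphoid tissue, by epithelia and by inflamed or injured tissue. Some, such as CCR7, CXCR5 and CXCR4, direct traffic through lymphoid organs and bone marrow. Others, such as CXCR3, CCR2 and CX3CR1, bring effector lymphocytes and monocytes to sites of inflammation, while CCR4, CCR6 and CCR10 guide cells towards skin and mucosa. After spinal cord injury (SCI) circulating leukocytes enter the lesion, which is why the receptors they carry in blood and in the cord are of interest.

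The genes described here are 9 human chemokine receptor genes, CCR7, CXCR5, CXCR4, CCR6, CCR4, CCR10, CXCR3, CX3CR1 and CCR2, chosen by name from the 33538 human genes of the reference, and all 9 were detected in every library. They were measured by droplet scRNAseq of live human CD45+ cells sorted from humanised mice, with 1 library each for naïve blood, sham blood, SCI blood and SCI spinal cord. All hosts were immunodeficient NOD.Cg-Prkdcscid mice that also carried the IL2rgtm1Wjl allele and the transgene Tg(CMV-IL3,CSF2,KITLG)1Eav/MloySzJ, in which a CMV promoter drives human IL-3, GM-CSF and stem cell factor, and all, the naïve controls included, had been engrafted with human CD34+ stem cells from umbilical cord blood and were labelled as 15 weeks of age. Naïve mice had no surgery, sham mice had a laminectomy at vertebral level T9, and SCI mice had the laminectomy and a T9 contusion, and the operated mice were sampled 7 days after surgery.

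Blood was depleted of red cells by lysis, whereas cord was digested with papain at 37 °C and enriched on magnetic beads before the sort, so tissue and dissociation cannot be told apart. The naïve and sham libraries came from male hosts and the SCI libraries from male and female hosts pooled, so host sex and injury cannot be told apart either. Cells of several animals were pooled into each library. No spread between animals can therefore be given and no test between conditions was made. All intervals below are 95% intervals for counting error only, exact Poisson for a level, exact binomial for a share and exact conditional binomial for a ratio.

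After filtering there remained 6324 human cells of naïve blood, 4648 of sham blood, 5931 of SCI blood and 118 of SCI cord, with 1430777 to 31110171 human UMIs (unique molecular identifiers, 1 per captured transcript) per library. The median cell held 3698 UMIs in naïve blood, 5232 after sham surgery, 4655 after SCI and 9331 in the injured cord, and a median of 7.64% to 8.46% of a cell's UMIs were mitochondrial. Library pairs shared at most 10 cell barcodes. Levels are UMIs scaled to a common total of 1000000 human UMIs without ribosomal and mitochondrial genes, abbreviated as CPM. Because reads were taken from transcript 3′ ends, levels are compared between cells and libraries and not between genes.

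Cells were gated on lineage genes, none of them a chemokine receptor. T cells, gated on CD3 genes, numbered 4033 (naïve blood), 3444 (sham blood), 4404 (SCI blood) and 52 (SCI cord), and were divided into FOXP3+ T, cytotoxic T (GZMH, GNLY, GZMB, FGFBP2), T cells with NRP2, AK5 or NOG, CD8 T, CD4 T with PDCD1 or CD200, other CD4 T, and other T cells in which none of these genes decided. B cells were divided by TCL1A, a gene of naïve and immature B cells, and plasma cells, monocytes, basophils or mast cells, granule cells (eosinophil and neutrophil granule genes) and natural killer (NK) cells were kept apart. In a check with 35 gene and class pairs, each gene was higher in its own class than in the other classes, by 1.33-fold (CD8 T) to 7284-fold (basophil or mast). In 1 pair, GNLY in NK cells, the gene was also used in a gate. A further 1354 barcodes with markers of more than 1 lineage were kept out of the classes as mixed. Naïve blood differed from the others in its 342 plasma cells, against 5 in sham and 8 in SCI blood. CD8 T cells formed 11.3% of the cells in naïve blood, 14.0% after sham surgery and 20.7% after SCI.

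The receptors of lymphoid traffic come first. CCR7 binds CCL19 and CCL21 and takes naïve and central memory T cells into lymph nodes. Its level over all human cells was 262 CPM in naïve blood, 325 after sham surgery, 338 after SCI and 76.3 in the injured cord. In summed values, fewer cells that carry a receptor and less of its RNA per cell cannot be told apart. In blood, 82.9% of its 19728 UMIs lay in T cells, and the level was highest in the T cells with NRP2, AK5 or NOG, at 932, 776 and 713 CPM in naïve, sham and SCI blood. CD8 T cells followed at 713, 720.02 and 733 CPM, overlapping that range, and other T cells at 352, 350 and 319 CPM lay below both without overlap. Without plasma cells, nearly all of which lay in naïve blood, the log2 ratio over all cells was 0.04 in place of 0.32 (sham to naïve) and 0.10 in place of 0.37 (SCI to naïve). From other CD4 T cells down to monocytes each class overlapped the next, and basophils or mast cells were lowest, at most 2.47 CPM.

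The plot of levels by class and blood library shows this order for each receptor.

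**Figure D1:**
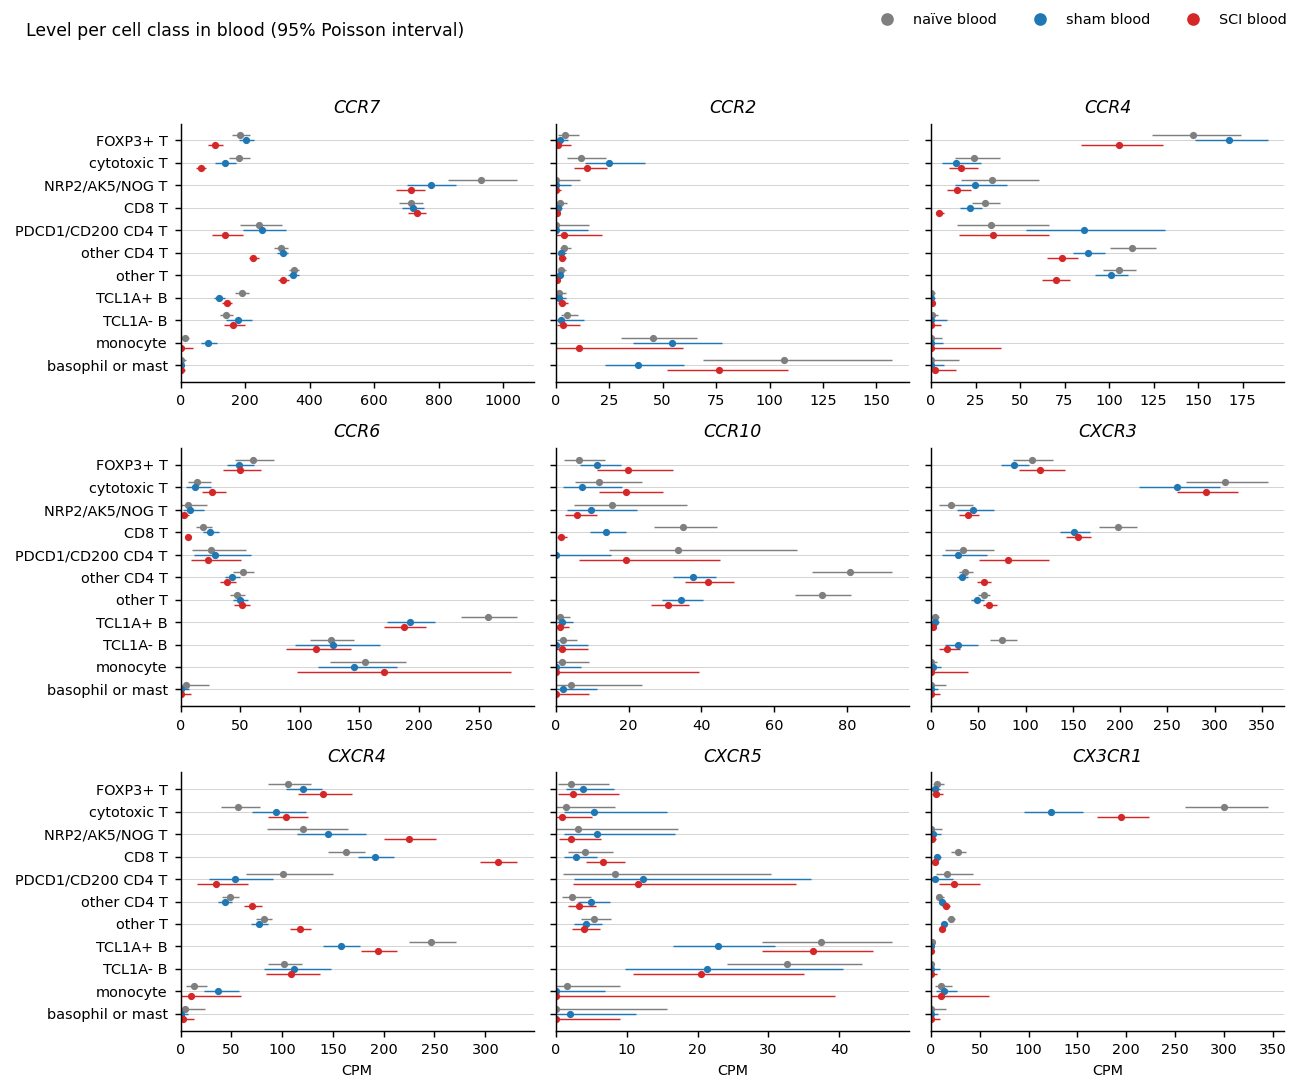
Level of each receptor (CPM of human UMIs, x axis, 1 panel per gene with its own scale) in 11 gated cell classes (y axis) of naïve, sham and SCI blood, with exact Poisson intervals as bars. CCR7 is highest in T cells with NRP2, AK5 or NOG and in CD8 T cells, CCR6 and CXCR5 in B cells, CXCR3 and CX3CR1 in cytotoxic T cells.

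Shares of cells with a UMI depend on depth, so they were also taken after thinning each cell to 1000 UMIs. A CCR7 UMI was then found in 38.2% (naïve), 40.6% (sham) and 37.3% (SCI) of CD8 T cells (unthinned 76.5%, 85.1% and 84.5%). Basophils or mast cells, which should lack CCR7, had 0 in each library, with the sham count of 0 of 112 cells allowing up to 3.24%. The median basophil or mast cell held 3027 to 4779 UMIs and the median CD8 T cell 3648 to 5151.

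Within all T cells together CCR7 stood at 394 CPM in naïve blood, 394 after sham surgery and 400.3 after SCI, with a log2 ratio of SCI to sham of 0.02 (interval -0.03 to 0.08). The subsets differed from that total. In cytotoxic T cells CCR7 stood at 181, 137 and 63.5 CPM, and SCI lay below naïve by a log2 ratio of -1.50 (-1.96 to -1.07) and below sham by -1.11 (-1.60 to -0.62). FOXP3+ T cells, the regulatory T cells, stood at 185, 203 and 107 CPM, with log2 ratios of -0.79 and -0.92. In CD8 T cells, which formed a larger share of SCI blood, the ratios were 0.04 (-0.05 to 0.13) and 0.03 (-0.06 to 0.11). Of 7 T subsets, 3 were lower in SCI than in sham blood by a log2 ratio past -0.5, the third being CD4 T cells with PDCD1 or CD200 (-0.86), and none was higher.

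CXCR5 binds CXCL13 and brings B cells and follicular helper T cells into B cell follicles. It was rarely counted, with 178 UMIs in naïve blood, 120 after sham surgery, 179 after SCI and 4 in the injured cord (8.07, 5.84, 8.33 and 3.77 CPM). B cells held 56.6% of the blood UMIs. TCL1A+ B cells stood at 37.5, 22.9 and 36.3 CPM and TCL1A- B cells at 32.6, 21.4 and 20.5 CPM, which overlap. The third class, CD4 T cells with PDCD1 or CD200, genes that follicular helper T cells also express, stood below both at 8.43, 12.3 and 11.6 CPM and above the class after it without overlap, but on 2, 3 and 3 UMIs. In cytotoxic T cells, which should lack CXCR5, none of 219, 118 and 276 thinned cells held a UMI (up to 1.67%, 3.08% and 1.33%), against 2.61%, 1.51% and 2.50% of TCL1A+ B cells. CXCR5 in TCL1A+ B cells was higher in SCI than in sham blood by 0.65 on the log2 scale (0.12 to 1.22) and lower in sham than in naïve blood, at -0.70 (-1.29 to -0.14).

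CXCR4 binds CXCL12 and retains cells in bone marrow, and it is carried widely by leukocytes. Its levels were 97.3 CPM in naïve blood, 94.1 after sham surgery, 155 after SCI and 291 in the injured cord, so naïve and sham were close, SCI blood was above both, and the cord was above SCI blood. In blood, T cells held 66.0% of its UMIs and B cells 20.0%. TCL1A+ B cells (247, 158 and 195 CPM) and CD8 T cells (162, 192 and 313 CPM) led and overlapped, while basophils or mast cells reached at most 4.27 CPM.

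T cells held more CXCR4 in SCI blood than in the other blood libraries. All T cells stood at 89.8 CPM in naïve blood, 94.9 after sham surgery and 162 after SCI, a log2 ratio of SCI to sham of 0.77 (0.68 to 0.87) and of SCI to naïve of 0.85 (0.75 to 0.96), where sham against naïve gave 0.08 (-0.04 to 0.20). Against naïve blood, 5 of 7 T subsets were higher past a log2 ratio of 0.5, led by CD8 T cells at 0.94 (0.77 to 1.13; 317 and 1174 UMIs) and T cells with NRP2, AK5 or NOG at 0.89 (0.42 to 1.42). CD4 T cells with PDCD1 or CD200 lay the other way at -1.49 (-2.83 to -0.38), on 24 and 9 UMIs. Against sham blood 4 of 7 subsets were higher and 1 lower. The summed level of 19 tissue dissociation response genes in T cells was 5744 CPM in naïve blood, 6576 after sham surgery and 6574 after SCI. Of the 18 with enough counts in SCI against sham T cells, 3 were higher (7.92% of all genes) and 2 lower (5.86%). The immediate early gene FOS was 1.00 higher (0.89 to 1.13; 117.9 against 58.7 CPM) and IER3 0.74 higher (0.43 to 1.06) in the same T cells as CXCR4, and their part in the CXCR4 result was not tested. TCL1A+ B cells were not higher than naïve in SCI blood, at -0.34 (-0.53 to -0.15), and were lowest in sham blood, at -0.64 (-0.86 to -0.43) against naïve.

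After thinning, a CXCR4 UMI was found in 12.4% of CD8 T cells in naïve blood (10.1 to 15.1), 12.6% in sham blood (10.1 to 15.3) and 19.4% in SCI blood (17.3 to 21.8). The SCI interval did not overlap the other two. CD8 T cells with a CCR7 UMI held CXCR4 more often than those without. After thinning to 2000 UMIs the shares were 25.2% against 11.7% in naïve, 24.7% against 15.7% in sham and 37.6% against 27.8% in SCI blood, so SCI blood was higher on both sides.

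**Figure D2:**
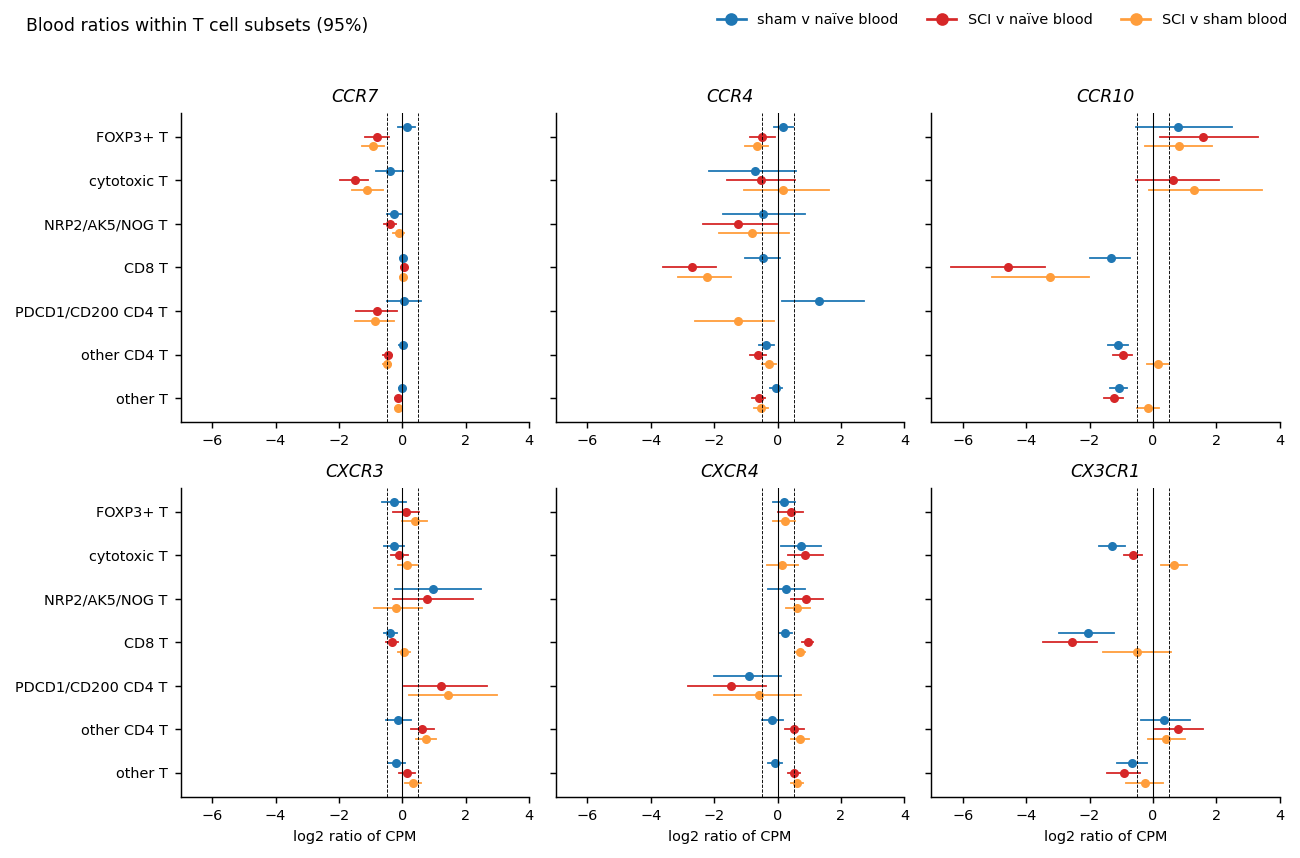
Log2 ratio of CPM (x axis) in 7 T cell subsets (y axis) for 6 receptors and 3 blood comparisons, with exact conditional binomial intervals; only subsets with at least 20 counts over both libraries are drawn. CXCR4 is above 0 in most subsets of SCI against naïve or sham blood and CCR4 below 0, while CCR10 is lower than in naïve blood in CD8, other CD4 and other T cells of both operated groups.

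CCR6, CCR4 and CCR10 are receptors of skin and mucosal traffic. CCR6 binds CCL20 and is carried by B cells, Th17 cells and part of the dendritic cells. Its levels were 63.1 CPM in naïve blood, 57.5 after sham surgery, 52.9 after SCI and 88.6 in the injured cord. B cells held 43.1% and T cells 41.1% of its blood UMIs. TCL1A+ B cells stood at 258, 193 and 188 CPM, monocytes at 155, 146 and 171 CPM and TCL1A- B cells at 126, 128 and 113 CPM, with no overlap between these 3 classes, and the T classes at 60.6 CPM or less. The monocyte value in SCI blood rests on 16 UMIs of 11 cells.

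In TCL1A+ B cells CCR6 was lower than naïve in both operated groups, at -0.42 (-0.62 to -0.22) in sham and -0.46 (-0.65 to -0.27) in SCI blood, and the groups differed from each other by -0.04 (-0.24 to 0.17). Cytotoxic T cells, named as a class that should lack CCR6, held a thinned share of 0.457%, 0.847% and 1.81%, against 16.1%, 9.503% and 11.7% of TCL1A+ B cells, with median depths of 3191 to 5157 and 3438 to 5544 UMIs. CD8 T cells, at 1.26%, 1.53% and 0.0814%, lay within the interval of that class in naïve and sham blood and below it in SCI blood. In pooled blood, however, cytotoxic T cells held 19.4 CPM of CCR6, CD8 T cells 14.9 and basophils or mast cells 0.883. Cytotoxic T cells therefore cannot decide whether CCR6 in CD8 T cells lies above background. The CCR6 log2 ratio of SCI to sham in CD8 T cells was -2.01 (-2.79 to -1.32, on 62 sham and 23 SCI UMIs), and it is given as a value only.

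CCR4 binds CCL17 and CCL22 and marks skin-homing, Th2 and regulatory T cells. Its levels were 54.9 CPM in naïve blood, 66.8 after sham surgery, 39.9 after SCI and 29.2 in the injured cord, and T cells held 86.4% of the blood UMIs. FOXP3+ T cells led at 147, 168 and 105 CPM, just overlapping other T cells (105, 101 and 70.1 CPM) and other CD4 T cells (113, 88.4 and 73.3 CPM). In TCL1A+ B cells 0, 0 and 1 UMIs were counted, and none of 728, 463 and 721 thinned cells held one (up to 0.505%, 0.794% and 0.51%), against 8.33%, 14.7% and 6.19% of FOXP3+ T cells.

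SCI blood was the library with less CCR4 in T cells. All T cells stood at 89.9 CPM in naïve blood, 84.3 after sham surgery and 47.5 after SCI, with log2 ratios of -0.92 (SCI to naïve), -0.83 (SCI to sham, -0.96 to -0.69) and -0.09 (sham to naïve, -0.21 to 0.03). Of 7 T subsets, 5 were lower in SCI than in sham blood past -0.5 and none was higher. CD8 T cells differed most, with 30.2, 21.8 and 4.53 CPM from 59, 54 and 17 UMIs, and FOXP3+ T cells gave -0.66 (-1.04 to -0.31). In CD8 T cells the thinned share was 1.82%, 1.53% and 0.0814%.

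CCR10 binds CCL27 and CCL28 and is carried by skin-homing T cells and IgA plasma cells. Its levels were 35.5 CPM in naïve blood, 20.5 after sham surgery, 19.2 after SCI and 9.42 in the injured cord, so here naïve blood stood apart from both operated groups. T cells held 85.8% of its blood UMIs. Other CD4 T cells (80.9, 37.8 and 41.7 CPM) and other T cells (73.1, 34.5 and 30.9 CPM) led and overlapped, and FOXP3+ T cells stood at 6.27, 11.4 and 19.8 CPM.

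In all T cells CCR10 stood at 57.1 CPM in naïve blood, 26.6 after sham surgery and 22.5 after SCI. The log2 ratio to naïve was -1.10 (-1.29 to -0.92) in sham and -1.34 (-1.53 to -1.15) in SCI blood, and SCI against sham gave -0.24 (-0.46 to -0.03). Other CD4 T cells were lower than naïve by -1.10 in sham and -0.95 in SCI blood and differed little from each other, at 0.14 (-0.19 to 0.47). CD8 T cells stood at 34.8, 13.7 and 1.33 CPM (68, 34 and 5 UMIs), a log2 ratio of SCI to sham of -3.25 (-5.08 to -2.004). The 5 SCI UMIs put CD8 T cells at the level of TCL1A+ B cells, which should lack CCR10 and held 1.10 to 1.60 CPM. FOXP3+ T cells lay the other way, at 1.59 against naïve (0.23 to 3.30; 6 and 16 UMIs).

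The inflammatory receptors follow. CXCR3 binds CXCL9, CXCL10 and CXCL11, the chemokines induced by interferon-γ, and marks Th1 and effector CD8 T cells. Its levels were 67.1 CPM in naïve blood, 62.6 after sham surgery, 85.6 after SCI and 85.7 in the injured cord, with T cells holding 79.8% of the blood UMIs. Cytotoxic T cells led at 311, 260.3 and 291 CPM, followed by CD8 T cells at 197, 152 and 156, FOXP3+ T cells at 107, 87.9 and 115 and other T cells at 55.8, 48.8 and 61.7 CPM, with no overlap between any neighbours down to this place. A UMI was found in 22.8%, 16.9% and 19.2% of thinned cytotoxic T cells against 0.137%, 0.648% and 0% of TCL1A+ B cells, where 0 of 721 allows up to 0.51%.

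In all T cells CXCR3 stood at 92.4 CPM in naïve blood, 74.4 after sham surgery and 100.2 after SCI, giving 0.43 for SCI against sham (0.32 to 0.54) and 0.12 against naïve (0.00 to 0.23). In the classes with the highest levels the interval against sham spanned 0, at 0.16 (-0.13 to 0.45) in cytotoxic T cells and 0.04 (-0.15 to 0.23) in CD8 T cells. Against naïve, CD8 T cells lay the other way from all T cells, at -0.34 (-0.53 to -0.15), and cytotoxic T cells gave -0.10 (-0.35 to 0.16). By contrast, other CD4 T cells stood at 36.1, 33.0 and 55.6 CPM, 0.75 above sham (0.43 to 1.07) and 0.62 above naïve (0.27 to 0.99). TCL1A- B cells held more CXCR3 in naïve blood (75.3 CPM, 113 UMIs) than in sham (28.5 CPM, 12 UMIs) or SCI blood (17.3 CPM, 11 UMIs).

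CX3CR1 binds the membrane-bound chemokine CX3CL1 and marks cytotoxic T cells, NK cells and non-classical monocytes. Its levels were 20.1 CPM in naïve blood, 12.3 after sham surgery, 19.6 after SCI and 5.65 in the injured cord. Cytotoxic T cells held 43.1% of its blood UMIs and stood at 300.4, 123 and 195 CPM, far above CD8 T cells at 27.2, 6.46 and 4.53 CPM. The 23 NK cells of the 3 blood libraries, pooled, held 27 UMIs (485 CPM, 320 to 706). A UMI was found in 20.5%, 9.32% and 16.3% of thinned cytotoxic T cells and in 1, 0 and 0 of the thinned TCL1A+ B cells, where 0 allows up to 0.794% in sham and 0.51% in SCI blood. The 3 blood libraries were ordered naïve, SCI, sham in cytotoxic T cells, with log2 ratios of -1.28 for sham to naïve (-1.70 to -0.89), -0.62 for SCI to naïve (-0.91 to -0.34) and 0.66 for SCI to sham (0.27 to 1.08). CD8 T cells did not share that order, at -2.56 for SCI to naïve (-3.47 to -1.77) and -0.52 for SCI to sham (-1.59 to 0.57). After thinning to 2000 UMIs, cytotoxic T cells with a CCR7 UMI held CX3CR1 in 27.9%, 14.3% and 10.5% of cells (naïve, sham and SCI), against 37.3%, 17.5% and 32.4% of those without. The intervals of each pair overlapped, the SCI share resting on 2 of 19 cells (1.30 to 33.1 against 26.7 to 38.5).

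CCR2 binds CCL2 and brings classical monocytes, and in humans also basophils and part of the effector T cells, to inflamed tissue. It stood at 15.1 CPM in naïve blood, 5.40 after sham surgery, 3.72 after SCI and 12.2 in the injured cord. Basophils or mast cells (107, 38.5 and 76.5 CPM) and monocytes (45.6, 54.2 and 10.7 CPM) led and overlapped, followed by cytotoxic T cells at 11.95, 25.0 and 14.7 CPM, and the monocyte value of SCI blood is 1 UMI in 11 cells. Plasma cells of naïve blood held 50.03 CPM and 194 of the 333 naïve UMIs. Without plasma cells the log2 ratio to naïve was -0.50 in place of -1.48 in sham and -1.03 in place of -2.01 in SCI blood, and that of SCI to sham was -0.53 in both. In TCL1A+ B cells, which should lack CCR2, the thinned share was 0% (up to 0.505%), 0% (up to 0.794%) and 0.416%, against 6.98%, 5.36% and 4.17% of basophils or mast cells.

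**Figure D3:**
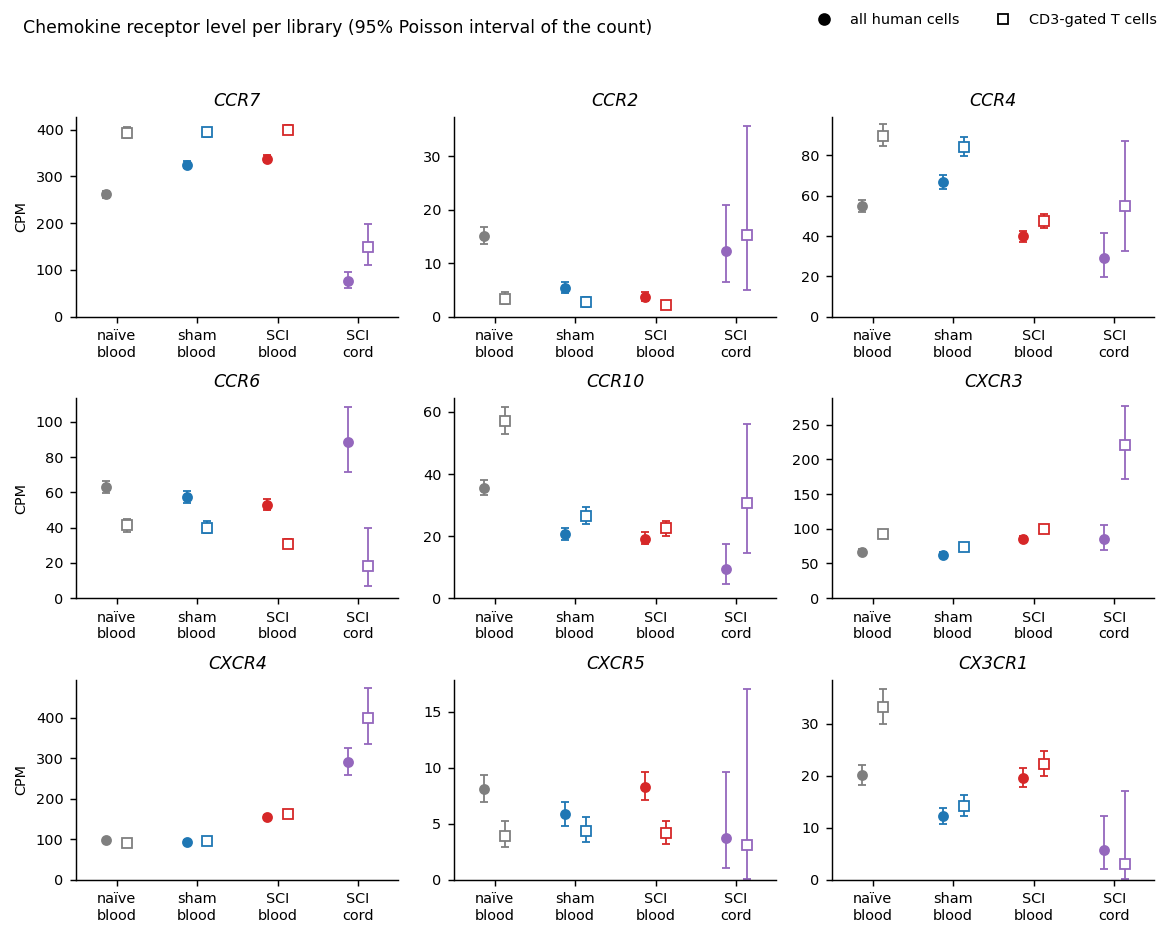
Level of each receptor (CPM of human UMIs, y axis, 1 panel per gene with its own scale) in the 4 libraries (x axis) over all human cells (circles) and over T cells only (squares), with exact Poisson intervals. CXCR4 is highest in SCI cord (291 CPM in all cells, 401 in T cells), CCR7 lowest there, and CCR10 is highest in naïve blood.

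The receptors past a log2 ratio of 0.5 either way in blood are given beside the share of all genes past it. In sham against naïve blood, 0 of 9 were higher (8.73% of 14546 genes) and 3 lower (7.52%), namely CCR2, CCR10 and CX3CR1. With plasma cells left out, CCR2 was no longer past the threshold (-0.498) and CXCR5 was lower in its place (-0.72, -1.07 to -0.38). In SCI against naïve blood, 1 was higher (11.1% of genes), CXCR4, and 2 lower (10.1%), CCR2 and CCR10. Without plasma cells 4 were lower, CCR4 (-0.74) and CCR6 (-0.53) in addition. In SCI against sham blood, 3 were higher (7.2%), CXCR4 at 0.72 (0.64 to 0.80), CX3CR1 at 0.68 (0.45 to 0.91) and CXCR5 at 0.51 (0.17 to 0.86), and 2 lower (8.24%), CCR4 at -0.74 (-0.87 to -0.62) and CCR2 at -0.53 (-0.97 to -0.11). With the same class weights in both libraries CXCR4 gave 0.54, CX3CR1 0.29 and CXCR5 0.27, which left 1 higher and 1 lower, and in mean UMIs per cell, without depth scaling, 0 were higher. The median log2 ratio of the 9 was -0.14, -0.04 and 0.06 in these comparisons and that of all genes 0.07, 0.07 and 0.01. Each pair of these comparisons shares a library, so an agreement between them is not separate evidence.

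In T cells alone, 0 receptors were higher in sham than in naïve blood (4.21% of 12936 genes) and 2 lower (6.41%), CCR10 and CX3CR1. In SCI against naïve blood 1 was higher (7.79%), CXCR4, and 4 lower (7.68%), CCR10, CCR4, CCR2 and CX3CR1, of which CCR2 had an interval that spanned 0. In SCI against sham blood 2 were higher (7.92%), CXCR4 and CX3CR1, and 1 lower (5.86%), CCR4. With 9 genes these shares are coarse, and with 1 library per condition these counts describe the libraries.

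**Figure D4:**
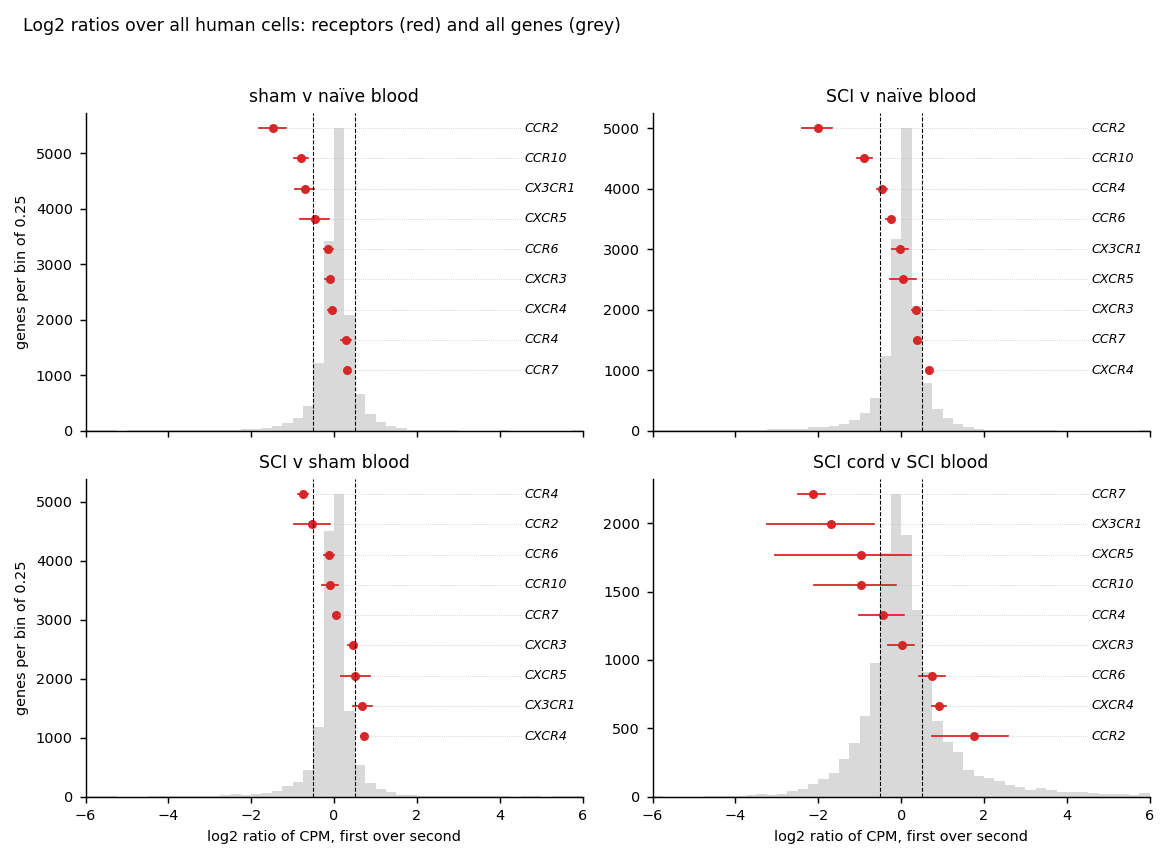
Histogram of the log2 ratio of CPM over all genes with at least 20 counts (grey; x axis log2 ratio, y axis number of genes) in 4 comparisons, with the 9 receptors as red points with intervals and dashed lines at 0.5 either way. CXCR4 lies right of the line in both SCI blood comparisons and in the cord, and the gene distribution is widest for the cord.

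In SCI cord the 118 cells included 52 T cells, 28 mixed barcodes, 14 basophils or mast cells, 8 granule cells, 6 TCL1A+ B cells and 4 monocytes. Mixed barcodes, with a median of 18008.5 UMIs, held 36.2% and T cells 30.8% of the UMIs of all genes. Against SCI blood, 3 receptors were higher past 0.5 (24.7% of 13392 genes), CCR2, CXCR4 and CCR6, and 4 lower (21%), CCR7, CX3CR1, CXCR5 and CCR10, with a median of -0.43 against -0.01 for all genes. The interval of CXCR5 spanned 0 (-0.98, -3.04 to 0.24), on 4 cord UMIs. The CCR2 value was 1.76 (0.75 to 2.57) over all cells but -2.40 (-8.31 to -0.38, on 1 against 31 UMIs) in basophils or mast cells. With the same class weights in both libraries, for the 2 classes that could be used, it was -2.89. In T cells 4 were higher (25.8% of 12149 genes), CCR2, CXCR4, CXCR3 and CCR10, and 3 lower (18.5%), CX3CR1, CCR7 and CCR6. The intervals of CCR10 (0.51, -0.63 to 1.34) and CCR6 (-0.64, -2.21 to 0.38) spanned 0, and thinning to 1000 UMIs left 1 receptor higher and gave -0.69 for CCR10 and 0.24 for CCR6. Doubled gate thresholds gave -0.023 for CCR10. The shares of all genes past the threshold were larger than in blood, and the library was smaller.

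CXCR4 had 309 UMIs in 57 of the 118 cord cells, and no barcode held more than 27 of them. Its log2 ratio to SCI blood was 0.91 (0.73 to 1.08) over all cells and 1.31 (1.04 to 1.56) over T cells. The T cell ratio was 1.68 when the 5 T subsets with at least 5 cells in each library had the same weights in both libraries. Over the alternative settings that ratio ran from 0.13 to 2.15. After thinning to 1000 UMIs, 11.9% of all cord cells held a CXCR4 UMI (6.64 to 19.1), against 11.0% in SCI blood (10.2 to 11.8). CD8 T cells held 60 UMIs in 8 of 9 cells, at a median depth of 7974 UMIs against 4449 in SCI blood. Thinned to 1000 UMIs, 2 of these 9 cells held one (22.2%, 2.81 to 60.01), a range that includes the 19.4% of SCI blood. The 15 other CD4 T cells stood at 218 CPM against 70.6 in SCI blood (1.66, 0.89 to 2.28). Mixed barcodes held 47.2% of the UMIs.

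CXCR3 stood at close levels in cord and SCI blood over all cells, at 0.01 (-0.32 to 0.31), but T cells held 79.1% of its 91 cord UMIs and stood at 220.1 CPM against 100.2 in SCI blood, 1.14 higher (0.77 to 1.48). Other CD4 T cells stood at 207 CPM (125 to 324) against 55.6, a log2 ratio of 1.93 (1.14 to 2.58). With the same subset weights in both libraries the T cell ratio was 0.94.

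CCR7 lay the other way, with 81 cord UMIs and a log2 ratio of -2.14 (-2.48 to -1.83) over all cells and -1.40 (-1.85 to -1.01) over T cells. With the same subset weights in both libraries the T cell ratio was -0.85. In other CD4 T cells it was -0.16 (-0.96 to 0.47). The shared weights covered 5 T subsets. They left out the T cells with NRP2, AK5 or NOG, which held 713 CPM in SCI blood and numbered 400 there and 1 in the cord. CD4 T cells with PDCD1 or CD200 were left out as well. The parts of the weights and of the subsets left out in the smaller difference were not tested.

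CCR6 was higher over all cord cells, at 0.75 (0.42 to 1.05), yet T cells held only 6 of its 94 UMIs. Mixed barcodes held 37, granule cells 18 in 5 of 8 cells, TCL1A+ B cells 16 and monocytes 9. The direction over all cells was lost when cells were thinned to 1000 UMIs, at -0.06.

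The remaining receptors were counted too rarely in the cord for more than a description. CCR4 had 31 UMIs (-0.43, -1.02 to 0.07), CCR2 13 in 11 cells, CX3CR1 6 in 6 cells and CXCR5 4. CCR10 had 10 UMIs in 3 T cells, of which 1 barcode held 7.

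**Figure D5:**
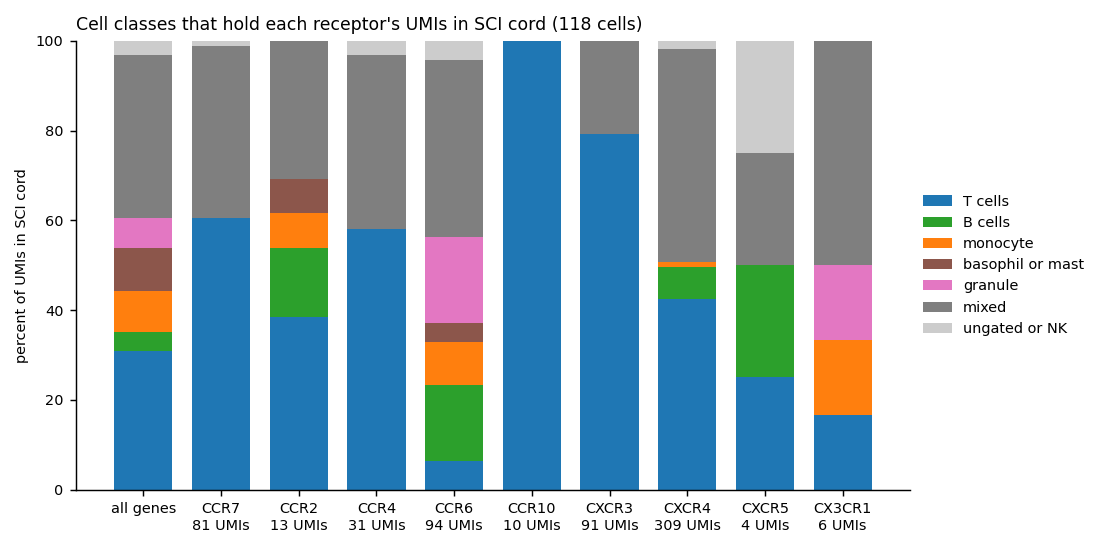
Share of the SCI cord UMIs of each receptor (y axis, percent) by cell class, as stacked bars from 0 to 100%, beside the share of UMIs of all genes. T cells hold 79.1% of the CXCR3 UMIs and 6.38% of the CCR6 UMIs, and mixed barcodes hold 47.2% of the CXCR4 UMIs.

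Other values moved with the cord. Of 19 genes of the tissue dissociation response, 13 were higher past 0.5 and 1 lower over all cord cells (24.7% and 21% of all genes; median 1.35, all genes -0.01; summed level 10143 against 6765 CPM in SCI blood). In T cells 10 of 18 were higher and 3 lower (25.8% and 18.5% of all genes; median 0.80, all genes 0.07; 8487 against 6574 CPM), and CXCR4 and CXCR3 were higher in the same T cells. Erythroid markers summed to 1.88 CPM or less over all cells of each library and to 3.06 CPM in cord T cells, with 5 of 6 at 0 in the cord. Of 5 platelet markers, 4 were at 0 in the cord, where the list summed to 122 CPM over all cells and 0 in T cells. The part of dissociation in the cord results was not tested.

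Of 15 other chemokine receptor genes, 10 had enough counts in SCI against sham blood, 1 higher and 4 lower (7.2% and 8.24% of all genes; median -0.45, all genes 0.01). CCR1, a receptor for CCL3 and CCL5 on monocytes, stood lowest among those with at least 100 counts, at -2.40 (2.79 against 14.8 CPM), where monocytes numbered 11 in SCI and 64 in sham blood. In the cord 5 of 8 were higher and 2 lower (24.7% and 21% of all genes; median 2.26), with CCR1 at 4.36 and CXCR6, a receptor of tissue-resident T cells, at 3.39. CXCR6 was also higher within cord T cells, at 3.98 (3.40 to 4.51).

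Of 44 human chemokine ligand genes, 18 had enough counts in SCI against sham blood, 7 higher and 8 lower (7.2% and 8.24% of all genes; median -0.38). CCL4L2 was highest at 2.96 (37.4 against 4.77 CPM) and CCL19, the CCR7 ligand, lowest at -6.38 on 1 against 119 UMIs (-12.28 to -4.45). In the cord 14 of 17 were higher and 2 lower (24.7% and 21% of all genes; median 4.04), with CXCL8 at 7.995 and CCL2, the CCR2 ligand, at 7.63. In cord T cells CCL3 stood at 358 CPM against 2.46 in SCI blood and CCL5 at 1507 against 656 CPM.

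Of 26 genes that transmit or end chemokine receptor signals, 0 were higher and 2 lower in SCI than in sham blood (RGS18 at -0.78 and RGS1 at -0.74), where 7.2% and 8.24% of all genes were. In the cord 7 were higher and 2 lower with a median of 0.01, the higher share close to the 24.7% of all genes and the lower one under their 21%. RGS1 and RGS16, which shorten G protein signals, stood at 3.80 and 4.27 over all cord cells. Of 20 trafficking partners 1 was higher and none lower in SCI than in sham blood (7.2% and 8.24% of all genes), and in the cord 3 were higher and 10 lower (24.7% and 21%; median -0.52). CD69, which holds T cells in tissue by removing S1PR1 from the surface, stood at 2.77 over all cord cells. KLF3 and TCF7, transcription factors of quiescent lymphocytes, stood at -1.96 and -1.71 there. Within cord T cells 1 of 19 partners was higher and 5 lower (25.8% and 18.5% of all genes; median -0.26). In these T cells CD69 stood at 2.83. Among those with at least 100 counts KLF3 (-1.998) and LEF1 (-1.06) were lowest, and not TCF7. The part of the cell mix in the values over all cells was not tested.

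For each receptor the genes with the most similar pattern over 13 classes of pooled blood were named by Pearson's r of log2(CPM + 1) among 9503 genes, as a description, since the classes share libraries. They were CRLF3, MSL3 and TAB2 for CCR7 (r 0.950 to 0.979) and NUP88, RUNDC1 and CEP126 for CXCR5 (0.920 to 0.952). For CXCR4 they were CISD1, DARS and CEP83 (0.945 to 0.947), and for CCR6 TRAPPC8, ZNF592 and MYO5A (0.904 to 0.924). CCR4 was most like AC133644.2, CD28 and RTKN2 (0.970 to 0.984) and CCR10 most like CD28, KIF5C and AGFG2 (0.920 to 0.923). CXCR3 was most like PRR5, RABL3 and CCDC88C (0.914 to 0.943), CX3CR1 most like STOM, FASLG and IFNG (0.924 to 0.947) and CCR2 most like DAPK1, TMED7 and NFIL3 (0.862 to 0.900).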

How the data were processed

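The authors deposited UMI counts per gene and barcode for each library, made with Cell Ranger from 10x 3′ reads on a reference that joins the human GRCh38 and mouse mm10 genomes. The 9 receptors, the gene lists and the gates were chosen with earlier results of these data known. Barcodes with over 50% of UMIs on human genes were kept (138 to 6713 per library). Those beyond 3 median absolute deviations in depth, genes, mitochondrial share or ribosomal share were removed (20 to 318). Barcodes marked by Scrublet (through scanpy 1.11.5, at 0.8% per 1000 barcodes) were removed only above 3000 genes (0 to 100 per library). The number marked followed from that rate, which gave 0 in the cord, so no cord barcode could be removed as a doublet. The automatic threshold of Scrublet called 6 of the 138 human barcodes of the cord. Counts were summed per library and class and scaled to CPM without ribosomal and mitochondrial genes. Levels have exact Poisson intervals, with a floor of 3 counts where none was seen, and log2 ratios had 0.5 counts added, at least 20 counts over both libraries and a fold threshold of 0.5. Lineage gates needed at least 2 (T, B, plasma) or 3 (monocyte, basophil or mast, granule) marker UMIs. Classes with under 10 cells in a library gave no ratio of their own. For the cord ratios with the same subset weights in both libraries, T subsets with at least 5 cells in each library were used. All 9 receptors are named, and from each list the 2 genes at either end of the log2 ratios, given a minimum of 100 counts, of which the text prints a part.

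No count model was fitted between conditions, as each has 1 library. edgeR 4.0.16 in R 4.3.3 served only for TMM factors in an alternative scaling. Scripts ran in Python 3.11.15 with scipy 1.17.1 for the intervals. The ratio script was tested on simulated counts. Alternatives covered the scaling, the depth, the weights of cells and classes, the barcode filters, doublets, the gates and the fold. Mouse barcodes (93 in the cord, 1230 to 1990 in blood) served only for host chemokines. No sequence of a human gene was used here.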

Additional observations from a re-analysis of the deposited data

Results flagged for a closer look

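Differences between cell classes of one comparison were picked out where intervals of both signs excluded 0 past a log2 ratio of 0.5. The differences between classes themselves were not tested, and each value compares 1 library with 1 library.

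For CCR7, sham against naïve blood gave -0.66 in TCL1A+ B cells and 2.65 in monocytes (8 and 46 UMIs). For CXCR4 in the same comparison the values were 0.73 in cytotoxic T cells, 1.47 in monocytes (8 and 20 UMIs) and -0.64 in TCL1A+ B cells.

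For CCR10, SCI against naïve blood gave 1.59 in FOXP3+ T cells, on 6 and 16 UMIs, but -4.58 in CD8 T cells, -0.95 in other CD4 T cells and -1.24 in other T cells. For CXCR3 it gave 1.22 in CD4 T cells with PDCD1 or CD200 and 0.62 in other CD4 T cells, but -2.06 in TCL1A- B cells. For CXCR4 the T cell values were 0.86 (cytotoxic), 0.89 (NRP2, AK5 or NOG), 0.94 (CD8), 0.53 (other CD4) and 0.53 (other T), against -1.49 in CD4 T cells with PDCD1 or CD200. For CX3CR1 other CD4 T cells gave 0.78, against -0.62 in cytotoxic, -2.56 in CD8 and -0.92 in other T cells.

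Outside the human cells, the 93 barcodes with mostly mouse UMIs in SCI cord held transcripts of some of the mouse ligands of the 9 receptors. The 1411 mouse barcodes of naïve blood held these at 0 (the exact interval of a count of 0 there reaches 1.29 CPM). Among these ligands were Ccl2 at 78.7, Ccl7 at 55.3 and Ccl12 at 402 CPM, mouse CCR2 ligands, Ccl27a at 4.83 CPM, a CCR10 ligand, Cxcl10 at 62.8 CPM, a CXCR3 ligand, and Cxcl13 at 98.1 CPM, the CXCR5 ligand. Mouse barcodes of SCI blood held Cxcl10 at 31.0, Ccl12 at 6.34, Ccl2 at 5.67, Ccl7 at 1.33, Ccl27a at 0.334 and Cxcl13 at 0 CPM, and those of sham blood held Cxcl10 at 11.2, Ccl2 at 3.72, Ccl27a at 1.02, Ccl12 at 0.508 and Ccl7 and Cxcl13 at 0 CPM. The Cxcl10 UMIs of the cord came from 8 barcodes and those of SCI blood from 5. Other ligands of the 9 receptors were at 0 in the cord mouse barcodes. They were Ccl19 and Ccl21a (CCR7), Ccl17 and Ccl22 (CCR4), Ccl20 (CCR6), Ccl28 (CCR10) and Cxcl9 (CXCR3). Cx3cl1 had 1 UMI there, and Cxcl12, the CXCR4 ligand, had 3 UMIs in 1 barcode. Mouse chemokines that bind other receptors were also counted in the cord, such as Ccl3 at 398 and Cxcl16 at 213 CPM. The mouse barcodes of the cord came through the sort for human CD45.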

How the results depend on the processing

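Under the alternative settings 14 log2 ratios were counted as reversed, all 14 in cord against SCI blood and past 0.5 in the main setting. A further 143 moved beyond their counting interval. Smaller blood ratios over all cells also changed sign, among them the following with the same class weights. In SCI against naïve blood CCR7 gave -0.18 (main 0.37), CXCR3 -0.10 (main 0.35) and CXCR5 -0.10 (main 0.05). In sham against naïve blood CCR7 gave -0.03 (main 0.32) and CCR4 -0.12 (main 0.28). In SCI against sham blood CCR7 gave -0.14 (main 0.06). No paired analysis was possible because each condition has 1 library. Thinning to 1000 UMIs gave over all cells CCR6 -0.059 and CXCR5 1.65, and in T cells CCR6 0.24 and CCR10 -0.69; 1 receptor was then lower in SCI than sham blood, 1 higher in sham than naïve T cells and 1 higher in cord T cells. Mean UMIs per cell without depth scaling gave over all cells CCR10 0.35 and CXCR5 0.33 and in T cells CCR6 0.20, with 2 receptors higher and 1 lower in sham than naïve blood, 0 higher in SCI than sham and 5 higher and 1 lower in cord; in T cells 3 were higher in sham than naïve, 2 lower in SCI than naïve, and 1 higher and 3 lower in SCI than sham. Means of per-cell CPM gave 4 lower in SCI than naïve and 1 lower in SCI than sham. The same class weights gave 0 higher and 4 lower in SCI than naïve, 1 and 1 in SCI than sham, and for the cord, where 2 classes could be used, CCR2 -2.89, CCR6 -0.023 and CCR10 1.05. T cells alone with the same subset weights, chosen after seeing the data, gave CCR6 -1.23 and CCR10 0.45. These 2 count as reversed against the values over all cells, 0.75 and -0.96. The main T cell values, -0.64 and 0.51, had the same signs as the weighted ones. Without plasma cells, also chosen after seeing the data, 4 receptors were lower in SCI than naïve. A fold of 1 left 1 lower in sham than naïve, 0 higher and 1 lower in SCI than naïve, 0 and 0 in SCI than sham, and 1 higher and 2 lower in cord; in T cells 0 and 1 in SCI than naïve and 0 and 0 in SCI than sham. Doubled gates and gates at 2000 UMIs each gave 2 lower in SCI than sham T cells, and doubled gates and resolved mixed barcodes (the latter added after seeing the data) gave CCR10 in cord T cells -0.023 and -0.024. The causes were not tested. CXCR4 kept its sign over all cells in SCI against naïve (0.46 to 0.73), SCI against sham (0.43 to 0.72) and cord against blood (0.34 to 2.22), and CCR4 in SCI against sham (-1.03 to -0.54). The cord values rest on 118 cells.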
